A study of Mus musculus with 27 samples.

Results

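The 10 genes described here encode proteins of the antioxidant and haem stress response. They are Nfe2l2 and Bach1, a transcriptional activator and a repressor of the response, Hmox1, Nqo1 and Gclm, classic targets of these factors, and Sod1, Sod2, Cat, Gpx1 and Prdx2, which remove reactive oxygen species. The genes were chosen by symbol, by a rule that uses no measured value, with earlier results of these data known. All 10 were found in each of 5 RNA-Seq tables that list 16465 to 18519 genes each and 14558 genes in common. All 10 had enough reads to be tested in every table, with 17 to 62326 reads per gene and library.

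The libraries came from mouse erythroleukaemia (MEL) cells, a clonal line of virus-transformed erythroid progenitors that can be induced to mature in culture. Messenger RNA was sequenced in 21 libraries (9 control and 12 treated), and a list of ETO2 and IRF2BP2 binding sites in the same cell type was analysed beside them. The study depleted 4 interacting regulators of transcription in erythroid progenitors and asked which genes respond, and it compared cells before and after induced maturation. The Cbfa2t3 knockdown (KD) depleted ETO2 (called Eto2 in the labels) with 2 short hairpin RNAs, sh2 and sh3, in 2 libraries each, against 2 control libraries, 72 h after lentiviral transduction. The Irf2bp2 KD used hairpin sh1 in 2 libraries against 2 controls, also at 72 h. The Kdm1a KD depleted LSD1 (Lsd1 in the labels) by hairpin in 2 libraries against 1 control at 72 h. The Gfi1b KD used short interfering RNAs in 2 libraries against 2 controls, and which of the study's 2 Gfi1b siRNAs each library received, and which of the harvest times named in the study's methods applies, are not given in the sources used here. The controls, labelled wild type, carried non-targeting hairpins or siRNAs. MEL induction compared 2 non-induced libraries with 2 libraries at 96 h, with the inducer not given in the sources used here. The study describes its replicates as independent biological samples, and with 1 or 2 libraries per arm (4 in the Cbfa2t3 KD) every test below rests on the spread between very few cultures of 1 clone.

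NRF2, the product of Nfe2l2, is held in the cytoplasm by KEAP1 and degraded until oxidants or electrophiles release it, after which it pairs with a small MAF protein and binds antioxidant response elements. BACH1 occupies the same elements with the same MAF partners and represses the genes, and haem binds BACH1 and removes it, so that haem oxygenase 1, the enzyme that opens the haem ring, is made when free haem rises. Erythroid cells make haem and haemoglobin in large amounts and rely on peroxiredoxin 2, catalase and glutathione peroxidase 1 to remove the peroxide that haemoglobin generates.

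Total counts ran from 9929311 to 57684583 per library, and the 10 most abundant genes took 4.66 to 7.47% of them. Levels within 1 gene are given below as CPM (reads scaled to library size) adjusted by the trimmed mean of M values (TMM) within each table, and 3 reads, taken as the floor, correspond to 0.0519 to 0.302 CPM. A gene is called changed where edgeR's quasi-likelihood test gave a Benjamini-Hochberg adjusted p of at most 0.05 over all genes tested and the log2 fold change was at least 0.5 in size. The targeted RNA was lower than in the controls in all KD libraries but 1. Cbfa2t3 went from 400.3 and 427 CPM to 202 and 244 (sh2) and 123 and 145 (sh3), Irf2bp2 from 116 and 119.7 CPM to 92.2 and 94.9, and Kdm1a from 152 CPM to 16.9 and 16.3. The Irf2bp2 fall (-0.33, SE 0.08, adjusted p = 0.00266, edgeR with Benjamini-Hochberg adjustment) passed the test but not the size limit. The Irf2bp2 KD also rests on 1 hairpin, so its changes have no second hairpin beside them. Gfi1b was at 122 and 145 CPM in its controls, at 76.5 CPM in Gfi1b KD replicate 2 and at 216 CPM in the library labelled Gfi1b KD replicate 1, so that library goes against its label. Erythroid markers, among them Alas2 and Slc4a1, were called higher for 8 of 11 tested in the Cbfa2t3 KD (2.99% of all genes), 11 of 11 in the Irf2bp2 KD (10.1%) and 10 of 11 in MEL induction (12.4%). In the Kdm1a KD 5 of 10 lay at least 0.5 below the control on the log2 scale in both KD libraries (9.8% of all genes). None was called in the Gfi1b KD, where the summed level of the markers was 1397 CPM in KD replicate 2 and 3623 CPM in the library labelled KD replicate 1. Lymphoid markers summed to at most 1.78 CPM in any library, and the myeloid and megakaryocyte lists are given together after the gene lists.

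In the control libraries the genes differed widely in length-corrected level. Over the 9 controls, RPKM values (reads scaled by gene length and library size) as deposited by the authors had a median of 561 for Sod1 (322 to 658) and 469.9 for Prdx2 (306 to 607), whose ranges overlap. Gpx1 followed at 221 RPKM (98.1 to 295), Gclm at 89.0 (48.7 to 113), Sod2 at 48.8 (31.2 to 51.3) and Nfe2l2 at 36.7 (32.3 to 45.6). Cat had a median of 28.2 RPKM (19.9 to 45.3), Hmox1 20.0 (12.0 to 34.2), Bach1 11.5 (10.4 to 15.1) and Nqo1 2.64 (0.972 to 3.85). With the controls of the 5 separate tables pooled, only the steps from Prdx2 to Gpx1 and from Bach1 to Nqo1 separate neighbours in this order without overlap. Within each table, all Gpx1 controls also lay above all Gclm controls, and all Gclm controls above all Sod2 controls.

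The 10 genes did not move as a block. The Irf2bp2 KD changed 5 of them, 2 upwards (Prdx2, Gpx1) and 3 downwards (Hmox1, Nfe2l2, Cat), where 22.5% of the 12329 genes tested were called, 10.1% higher and 12.5% lower. MEL induction changed 6, 4 upwards (Gclm, Prdx2, Bach1, Cat) and 2 downwards (Hmox1, Sod1), against 27.2% of 11713 genes (12.4% higher, 14.8% lower). The Cbfa2t3 KD changed Gpx1, upwards, among 5.74% of 12537 genes (2.99% higher, 2.75% lower). In the Kdm1a KD, which has a single control library and is given as values without a test, and where a gene counts as past the limit when both KD libraries differ from the control by at least 0.5 on the log2 scale in the same direction, Hmox1 was past it, upwards, as were 22.9% of 12628 genes (13.1% upwards, 9.8% downwards). The Gfi1b KD called none of the 10, and 0% of 11190 genes, by edgeR. There, 1 of the 10 (Cat) and 784 of all genes had an unadjusted p under 0.05, and DESeq2 called 59 genes, of which 0 were among the 10.

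**Figure D1:**
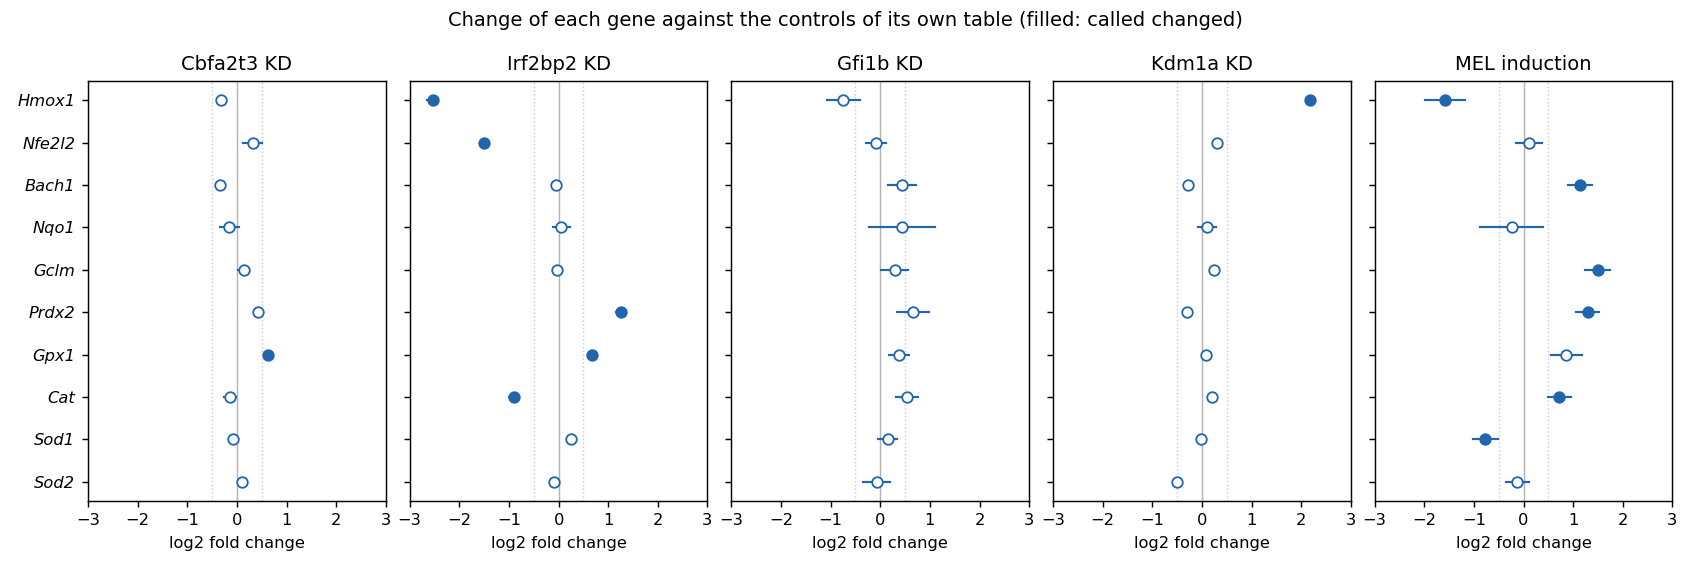
Log2 fold change of each gene (x axis) against the controls of its own table, in 5 panels. Bars are standard errors, or in the Kdm1a KD the range of the 2 KD libraries against the single control, dotted lines mark 0.5 in either direction, and filled points were called or, in the Kdm1a KD, past the limit. Hmox1 lies farthest left in the Irf2bp2 KD (-2.54) and farthest right in the Kdm1a KD (2.17).

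The sizes of the changes set the comparisons apart. The median absolute log2 fold change of the 10 genes was 0.47 in the Irf2bp2 KD, 0.81 in MEL induction, 0.41 in the Gfi1b KD, 0.26 in the Kdm1a KD and 0.23 in the Cbfa2t3 KD. The signed medians were -0.03, 0.42, 0.34, 0.09 and 0.02. Over all genes tested the absolute median was 0.28, 0.54, 0.25, 0.28 and 0.13 in the same order. Treated and control libraries did not overlap for 8 of the 10 genes in the Irf2bp2 KD, where 74.1% of all genes did not, for 8 in MEL induction (67.3%), for 5 in the Cbfa2t3 KD (37.8%), for 6 in the Gfi1b KD (39.2%) and for 9 in the Kdm1a KD (88.8%), where the control arm is 1 library.

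**Figure D2:**
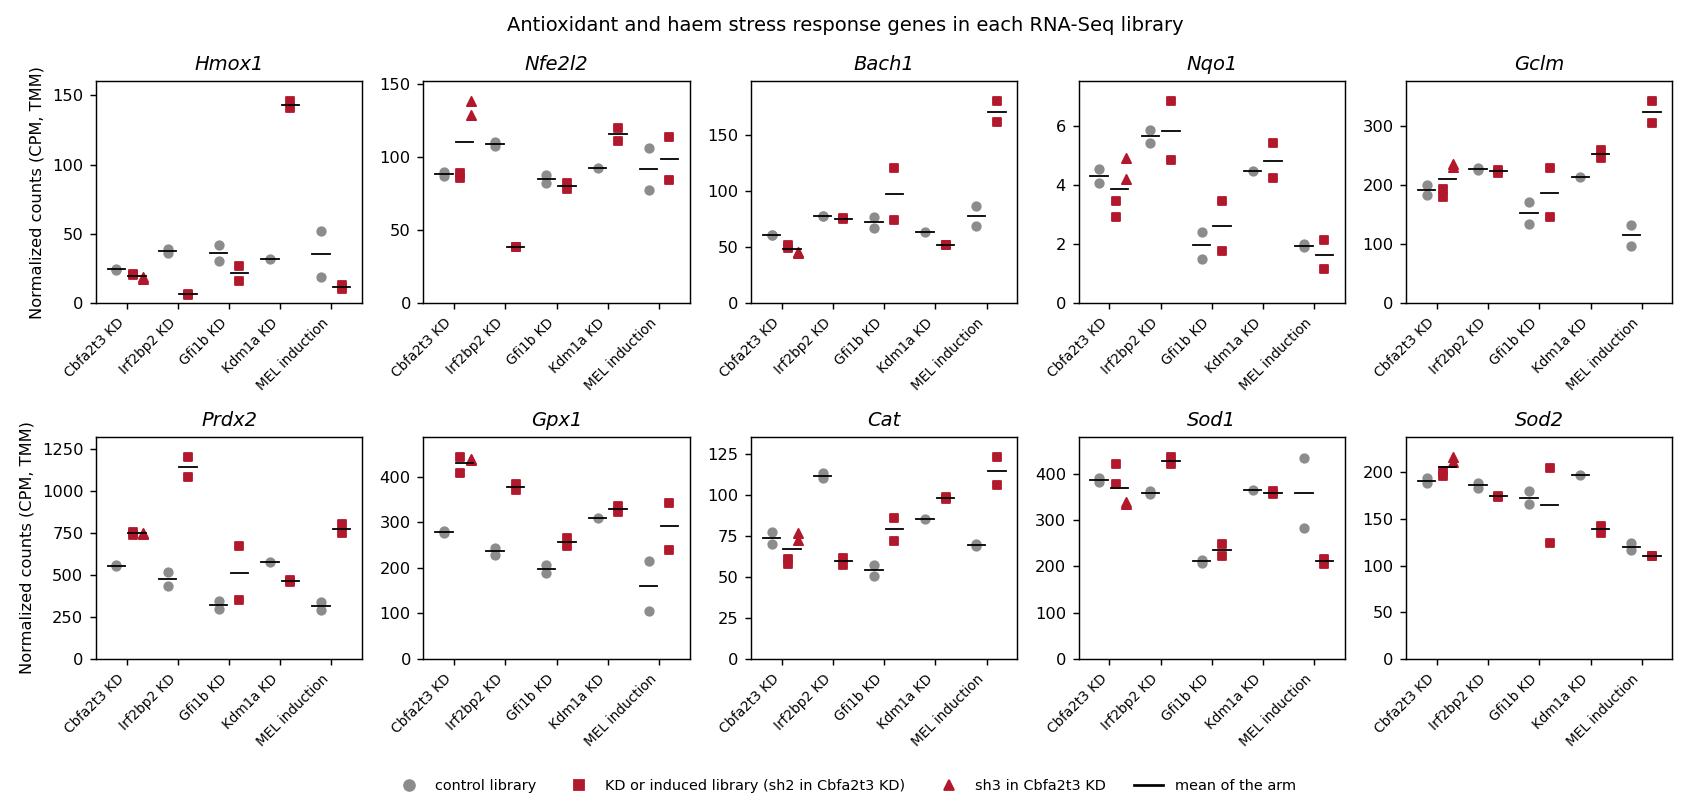
Normalized counts (TMM CPM, y axis, starting at 0) of each gene in each of the 21 libraries. Grey circles are controls, red squares KD or induced libraries, red triangles the sh3 libraries of the Cbfa2t3 KD and black lines arm means. The Irf2bp2 KD libraries sit at 6.63 and 6.40 CPM of Hmox1 against 36.3 and 39.2 in their controls.

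Nfe2l2 lies on the minus strand of chromosome 2 (mm9, chr2:75513570-75542698). In the Irf2bp2 KD its RNA measured 108 and 110.5 CPM for the controls and 38.7 and 38.8 CPM after KD. Both KD libraries lay below both controls, and replicates of an arm differed by less than 3 CPM. Nfe2l2 fell by 1.50 on the log2 scale (SE 0.08, adjusted p = 3.55e-10, edgeR with Benjamini-Hochberg adjustment), to a level 2.82-fold lower, and 3.06% of the genes tested moved farther. In bulk RNA, fewer cells of a type and less RNA per cell cannot be told apart, here and in every comparison below.

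The hairpins of the Cbfa2t3 KD gave different Nfe2l2 levels. Controls measured 90.1 and 87.2 CPM, sh2 gave 89.6 and 85.5 CPM, and sh3 gave 129 and 138 CPM. Only the sh3 libraries stood clear of the controls. Taken alone, sh3 raised Nfe2l2 by 0.59 (SE 0.06, adjusted p = 3.17e-05) and sh2 gave -0.02 (SE 0.06, adjusted p = 0.867), and the direct difference was 0.61 (SE 0.06, adjusted p = 1.14e-04, edgeR with Benjamini-Hochberg adjustment). Over both hairpins Nfe2l2 was not called (0.32, SE 0.19, adjusted p = 0.332). The sh3 libraries also held less Cbfa2t3 RNA than the sh2 libraries, and its part in the difference was not tested.

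In the other comparisons Nfe2l2 was not called. It was at 82.7 and 87.7 CPM in Gfi1b controls against 78.1 and 82.2 CPM in libraries labelled Gfi1b KD, and at 93.0 CPM in the Kdm1a control against 111 and 119.8 CPM. In MEL induction the non-induced libraries were at 77.6 and 106 CPM and the induced libraries at 84.2 and 114 CPM. Those arms overlapped. The log2 fold changes were -0.09 (SE 0.20), 0.31 (no test) and 0.11 (SE 0.26).

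Bach1 (mm9, chr16:87699190-87733591, plus strand) showed the reverse distribution, with no change called in the Irf2bp2 KD and a rise on induction. It was at 86.2 and 68.9 CPM in non-induced cells and at 161 and 179.5 CPM in induced cells, with no overlap. Bach1 rose by 1.13 on the log2 scale (SE 0.24, adjusted p = 0.00436, edgeR with Benjamini-Hochberg adjustment). Without non-induced replicate 2 the adjusted p was 0.0516, with a log2 fold change of 0.98, and the call was lost. The Irf2bp2 values were 77.7 and 77.3 CPM against 74.9 and 75.5 CPM (-0.04, SE 0.08, adjusted p = 0.686). In the Cbfa2t3 KD both controls were at 60.7 CPM and the 4 KD libraries lay at 49.3, 52.0, 45.9 and 44.6 CPM, all below. That difference passed the test (-0.34, SE 0.07, adjusted p = 0.0194) but not the limit on size. The Kdm1a KD libraries were at 51.7 and 52.3 CPM against 63.4 CPM.

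Other components of the response were read from a list of 18 genes, here called regulators (including KEAP1 and its partners, small MAF, CNC and FOXO factors, and Ccs). They were called at about the share of all genes in the Irf2bp2 KD (4 of 17, 22.5% of all genes) and under it on induction (4 of 17, 27.2%). In the Irf2bp2 KD 2 of 17 tested rose, Mafk (0.86), a small MAF partner, and Nfe2 (0.68), the erythroid relative of NRF2, and 2 fell, Bach2 (-1.34) and Maff (-0.57). Bach2 was low, at 1.48 CPM on average in controls and 0.589 CPM in KD libraries. In MEL induction 2 rose, the forkhead factors Foxo3 (1.09) and Foxo4 (0.89), and 2 fell, Maff (-2.32) and Ccs (-1.15), the copper chaperone of SOD1. Foxo3 (0.54) rose in the Cbfa2t3 KD, alone among 17, where 2.99% of all genes rose. In the Kdm1a KD Maff (-0.99), Ccs (-0.70) and Btrc (-0.59) were past the limit downwards, 3 of 17 where 9.8% of all genes were. The Gfi1b KD called none of 17. The median log2 fold change of the list was 0.15, 0.19, 0.07, -0.29 and 0.08 in these comparisons, against -0.01, -0.02, 0.00, 0.00 and 0.02 over all genes.

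Hmox1 (mm9, chr8:77617490-77624495, plus strand) moved the most among the 10 genes and in opposite directions. Irf2bp2 KD libraries held 6.63 and 6.40 CPM of Hmox1, and their controls 36.3 and 39.2 CPM. Every KD library lay below every control, with 294 and 331 reads behind the low values. Hmox1 fell by 2.54 on the log2 scale (SE 0.11, adjusted p = 1.52e-11, edgeR with Benjamini-Hochberg adjustment), 5.80-fold lower, and 0.633% of the genes tested moved farther. After Kdm1a KD the level was 141 and 146 CPM, with 31.8 CPM in the single control. Both were above the control, 4.51-fold on average (2.17 on the log2 scale), and 1.14% of genes differed more. The spread between controls is unknown there, and the difference between these responses was not tested.

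**Figure D3:**
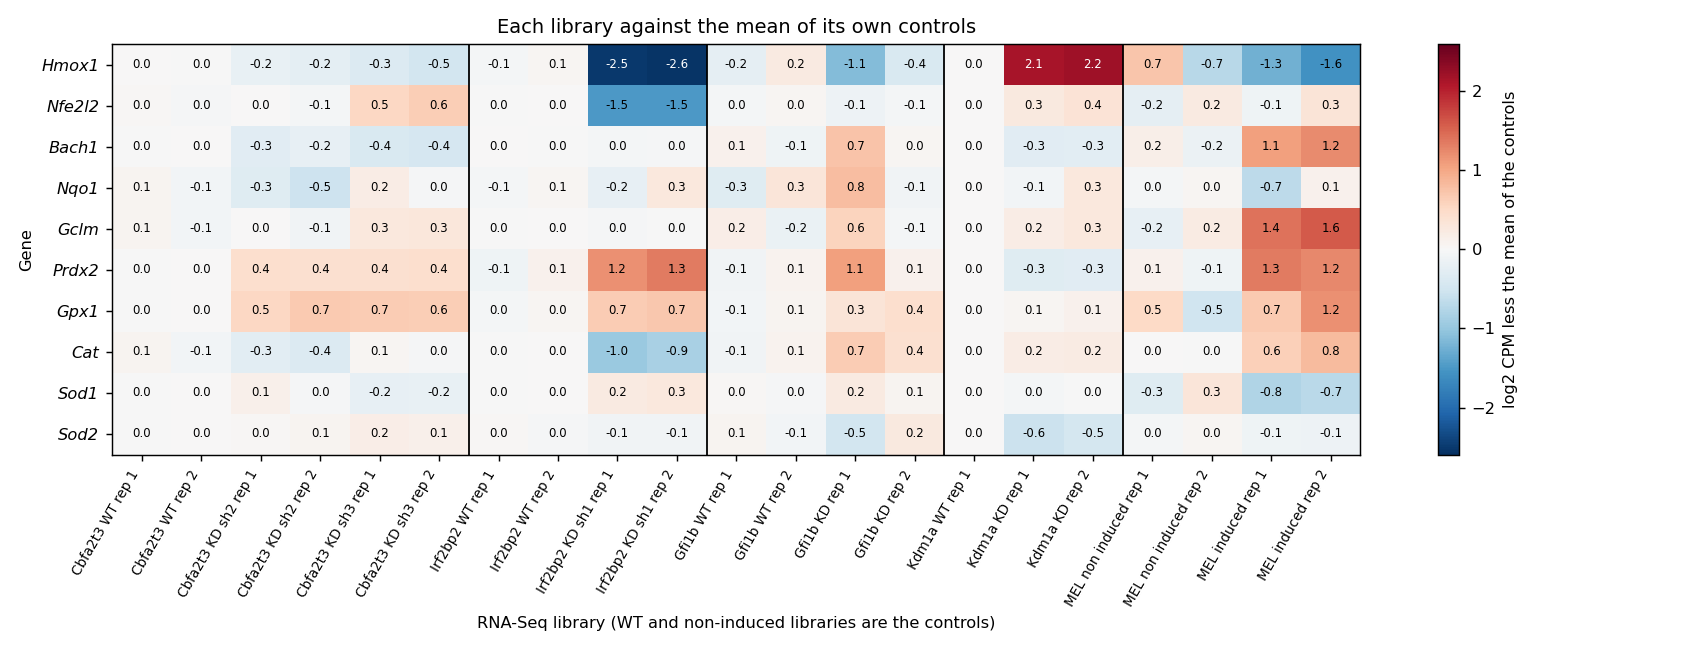
Log2 CPM of each gene (rows) in each of the 21 libraries (columns) less the mean of the controls of the same table. The scale runs from blue (lower) to red (higher) and black lines separate the tables. Hmox1 is lowest in the Irf2bp2 KD libraries and highest in the Kdm1a KD libraries, while the libraries labelled Gfi1b KD differ from each other for Prdx2, Bach1 and Sod2.

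On MEL induction Hmox1 was at 52.4 and 19.3 CPM in non-induced libraries and at 13.3 and 10.6 CPM in induced libraries. The arms did not overlap, but the non-induced replicates were farther apart than the lower of them was from the induced libraries. Hmox1 fell by 1.59 (SE 0.41, adjusted p = 0.0115, edgeR with Benjamini-Hochberg adjustment). Without non-induced replicate 1 the log2 fold change was -0.70 (adjusted p = 0.252) and the call was lost. In the Cbfa2t3 KD the controls at 24.8 and 24.4 CPM lay above all 4 KD libraries (21.5 and 20.7 for sh2, 19.3 and 17.7 for sh3). That difference was not called (-0.31, SE 0.09, adjusted p = 0.0607). The Gfi1b controls were at 30.6 and 42.0 CPM and the KD libraries at 16.3 (labelled replicate 1) and 27.1 CPM.

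The difference between comparisons was tested in 1 fit of the 18 replicated libraries. Hmox1 in the Cbfa2t3 KD exceeded that in the Irf2bp2 KD by 2.21 on the log2 scale (SE 0.45, adjusted p = 0.0301), and Nfe2l2 did so by 1.80 (SE 0.29, adjusted p = 0.00541, edgeR with Benjamini-Hochberg adjustment). Those were the only 2 of the 10 genes called in this contrast, where 0.742% of 13620 genes were. A fit of these tables alone, added after seeing the data, gave 2.22 and 1.81 and called Cat (0.76) and Prdx2 (-0.84) as well, and it called 14.4% of 12719 genes. Against the Gfi1b KD the Irf2bp2 KD differed for Cat (-1.37), Hmox1 (-1.72) and Nfe2l2 (-1.33), among 5.95% of all genes, a contrast that includes the library labelled Gfi1b KD replicate 1. The Cbfa2t3 and Gfi1b KDs differed for none of the 10, with 1.41% of all genes called.

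3 sites of the combined list were assigned to Hmox1, all of the class bound by IRF2BP2 and not by ETO2. They lay 39, 3867 and 9594 bases upstream of the start, at 13.5-fold, 4.27-fold and 14.4-fold of ChIP reads over IgG. The class of a site here and below was read from a code by the size of each class, and the fold column names no factor. The last of these stands at percentile 88.4 of its class by fold and the middle one at percentile 18.5. Windows of 300 bases around the centres of the outer 2 are shown because they hold the letters of the element that NRF2 and BACH1 recognise. They are on the mm9 plus strand, with capitals marking TGACNNNGC (the antioxidant response element core), TGAGTCA (the core read by small MAF and AP-1 dimers) and GATAA (the GATA core) on either strand. The first pair overlap where 9 bases read GCTGAGTCA. The windows are chr8:77607746-77608045 and chr8:77613473-77613772.
Hmox1 9594 bases upstream: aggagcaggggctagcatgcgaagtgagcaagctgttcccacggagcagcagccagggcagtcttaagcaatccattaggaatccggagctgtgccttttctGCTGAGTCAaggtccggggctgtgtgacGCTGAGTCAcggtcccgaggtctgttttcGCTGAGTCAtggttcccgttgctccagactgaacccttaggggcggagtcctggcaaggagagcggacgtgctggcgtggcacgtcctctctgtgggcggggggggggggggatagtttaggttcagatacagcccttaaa
Hmox1 3867 bases upstream: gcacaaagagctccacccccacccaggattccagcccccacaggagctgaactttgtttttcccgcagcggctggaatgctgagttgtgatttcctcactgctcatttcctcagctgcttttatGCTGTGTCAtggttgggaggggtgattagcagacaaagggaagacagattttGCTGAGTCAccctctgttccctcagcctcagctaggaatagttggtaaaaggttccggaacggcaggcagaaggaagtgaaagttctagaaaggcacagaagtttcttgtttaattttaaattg

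The distal Hmox1 window holds 3 copies of the overlapping TGACNNNGC and TGAGTCA elements, and the nearer window holds 2 matches to TGACNNNGC of which 1 is also TGAGTCA. Both windows were picked for these letters, so the copies are a description. Of the 8739 windows of the IRF2BP2-only class, 16.3% hold at least 1 TGAGTCA, 18.3% TGACNNNGC and 46.7% GATAA. These matches describe letters in a window, and of the factors named here ETO2 and IRF2BP2 binding was analysed.

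Nfe2l2 had 1 assigned site, upstream of its start and bound by both ETO2 and IRF2BP2, at 18-fold over IgG (adjusted p = 7.49e-11 in the deposited list). Bach1 carried the highest fold of any site of the 10 genes (20.1), in an intron 1192 bases downstream of its start, and the window of that site, chr16:87700232-87700531 on the mm9 plus strand, is shown for that reason. Capitals mark the same motifs.
Bach1 1192 bases downstream: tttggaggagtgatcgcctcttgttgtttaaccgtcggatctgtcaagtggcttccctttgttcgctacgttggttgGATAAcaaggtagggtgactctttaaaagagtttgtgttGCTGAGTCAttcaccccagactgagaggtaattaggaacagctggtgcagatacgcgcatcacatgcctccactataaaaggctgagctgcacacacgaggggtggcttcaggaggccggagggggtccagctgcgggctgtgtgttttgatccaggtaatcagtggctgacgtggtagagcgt

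The Bach1 window holds 1 GATAA and 1 copy of the 9 bases that match both TGACNNNGC and TGAGTCA. Bach1 had 4 further IRF2BP2-only sites, 956 bases upstream (4.25-fold) and 1692, 14200 and 39591 bases downstream of its start (11-fold, 17.2-fold and 5.67-fold). The labels give 1 IRF2BP2 ChIP library, so its sites have no replicate here, and the ETO2 sites come from an earlier data set.

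Across the 10 genes, 23 of the 13229 sites were assigned to 9, each site to the nearest protein-coding gene within 1 Mb. Cat had none. A site was assigned to 45.2% of the 10696 genes tested in both the Cbfa2t3 and Irf2bp2 KDs. 19 of the 23 sites were IRF2BP2-only, 2 shared and 2 ETO2-only, where the list holds 8739, 2730 and 1760. ETO2 sites of either class fell to Gpx1, Sod1 and Nfe2l2, 3 of 10 genes where 20.4% of genes have one. A shared site inside the Prdx2 gene, 1586 bases downstream of its start, was given by this assignment to Rnaseh2a, which overlaps Prdx2 on the opposite strand. The IRF2BP2-only site given to Prdx2, 2715 bases upstream, in turn lies inside Rnaseh2a, at an exon. IRF2BP2 sites fell to 9 of 10 where 41.8% have one. 14 sites lay within 5 kb of a start, in 8 genes. Of the 5 genes called in the Irf2bp2 KD, Hmox1, Nfe2l2, Prdx2 and Gpx1 had an IRF2BP2 site and Cat did not, and of the 5 genes not called there all had one.

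**Figure D4:**
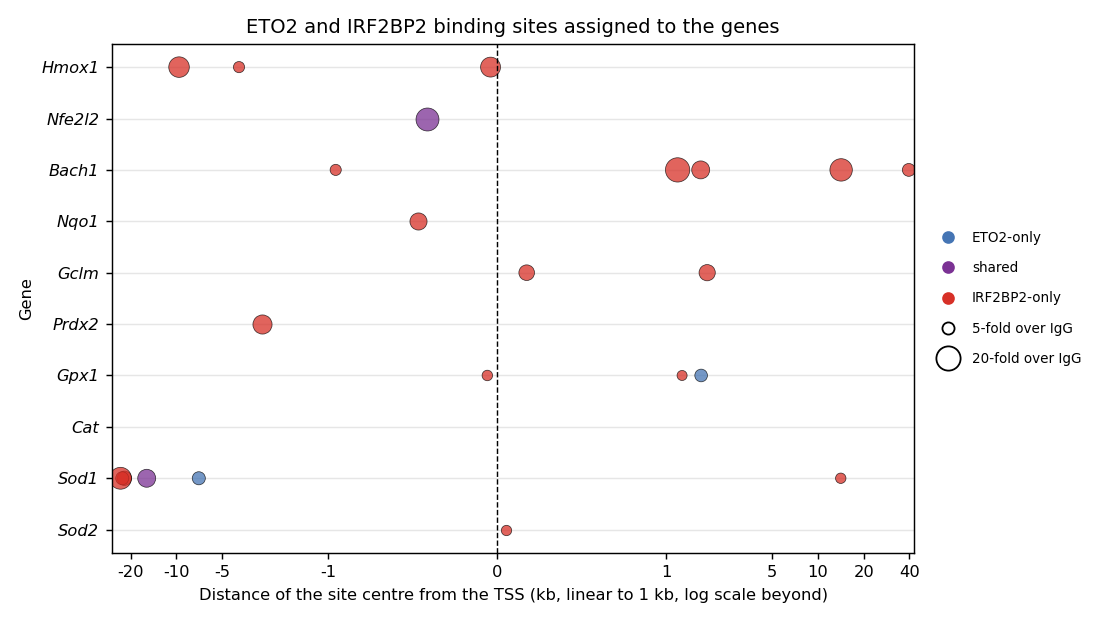
Position of the 23 assigned sites relative to the start of each gene (x axis, kb, linear within 1 kb and logarithmic beyond). Colour gives the class and area the fold over IgG. The 3 Hmox1 sites and all 5 Bach1 sites are IRF2BP2-only, the Nfe2l2 site is shared, and Cat has none.

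Gclm (mm9, chr3:121948475-121972902, plus strand), which encodes the modifier subunit of the enzyme that starts glutathione synthesis, was called on induction, and in no KD with all libraries in. It was at 98.0 and 133 CPM in non-induced libraries and at 305 and 342 CPM in induced libraries, with no overlap. The rise of 1.49 on the log2 scale (SE 0.25, 2.81-fold) had an adjusted p of 0.00103 by edgeR with Benjamini-Hochberg adjustment, and it was called without any 1 of the 4 libraries. Irf2bp2 depletion left Gclm at 222 and 227 CPM, with controls at 226 and 229.8 CPM (-0.02, SE 0.08, adjusted p = 0.833). Less that in induction, the Gclm response was -1.32 in the Cbfa2t3 KD, -1.46 in the Irf2bp2 KD and -1.23 in the Gfi1b KD (adjusted p = 0.00267, 0.00258 and 0.0115, all called). The last averages 229 CPM in the library labelled Gfi1b KD replicate 1 and 147 CPM in replicate 2. Gclm had 2 IRF2BP2-only sites, 175 and 1866 bases downstream of its start (8.33-fold and 9-fold). Reads of the long non-coding RNA gene Gm17494, on the opposite strand, could be counted with Gclm because use of strand in the counting is not given.

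Nqo1 (mm9, chr8:109912125-109927106, minus strand), a quinone reductase often used to report NRF2 activity, stayed low in every library. It ranged from 1.18 to 6.82 CPM, with 17 to 353 reads. No comparison called it, and its log2 fold changes were -0.15 (SE 0.20) in the Cbfa2t3 KD, 0.05 (SE 0.17) in the Irf2bp2 KD, 0.44 (SE 0.67) in the Gfi1b KD and -0.24 (SE 0.64) in induction. In the Gfi1b KD the library labelled replicate 1 was at 3.46 CPM and replicate 2 at 1.78 CPM. The sh3 libraries (4.91 and 4.19 CPM) lay above the sh2 libraries (3.46 and 2.93 CPM), a difference of 0.51 (SE 0.15, adjusted p = 0.0419). An IRF2BP2-only site lay 466 bases upstream (10.0-fold).

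**Figure D5:**
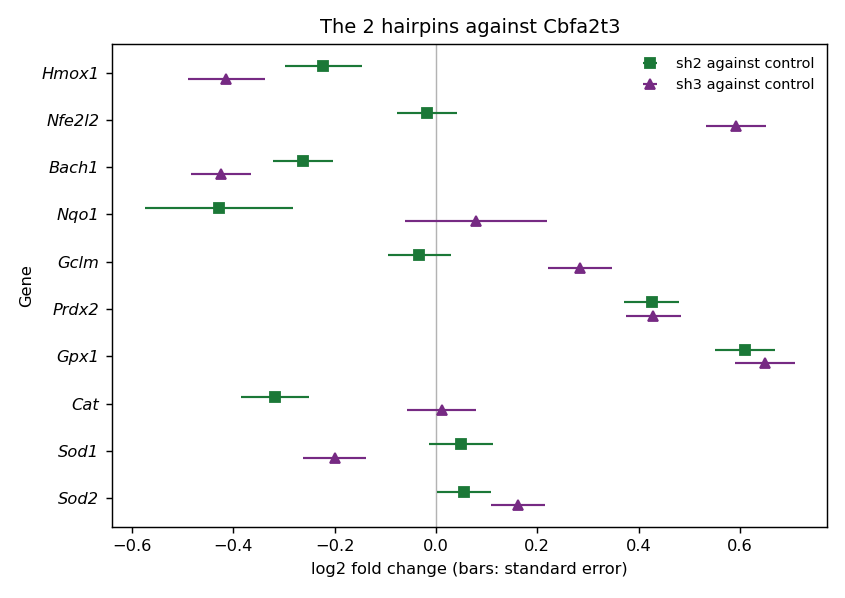
Log2 fold change of each gene against the Cbfa2t3 controls (x axis) for sh2 (green squares) and sh3 (purple triangles), with standard errors. Nfe2l2 separates the hairpins most (-0.02 against 0.59), and Gpx1 and Prdx2 lie together.

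Among the 10 genes the hairpin difference was called, by both the test and the size limit, for Nqo1 and Nfe2l2, where 3.71% of all genes were called. Cat, Sod1 and Gclm passed the test but not the size limit, and the share of all genes that passed the test alone is not given here. Gpx1 differed by 0.04 (SE 0.06) and Prdx2 by 0.00 (SE 0.05). Both genes were higher with each hairpin.

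Prdx2 (mm9, chr8:87493486-87498733, plus strand), the abundant peroxiredoxin of red cells, measured 438 and 516 CPM in Irf2bp2 controls and 1083 and 1205 CPM after the KD. In MEL induction it was at 339 and 293 CPM before and at 802 and 749 CPM after. No treated library overlapped the controls. It rose by 1.26 (SE 0.10, adjusted p = 3.75e-08, 2.40-fold) in the Irf2bp2 KD and by 1.29 (SE 0.24, adjusted p = 0.00172, 2.45-fold) on induction, by edgeR with Benjamini-Hochberg adjustment. The difference between these responses was 0.03 (SE 0.28, adjusted p = 0.951).

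The Cbfa2t3 KD gave a smaller Prdx2 difference. Controls measured 555 and 558 CPM and the 4 KD libraries 757, 738, 744 and 754 CPM, all above. The log2 fold change of 0.43 (SE 0.05, adjusted p = 0.00118) passed the test and not the size limit. Less that in the Irf2bp2 KD, the Prdx2 response was -0.85 in the fit of 18 libraries and not called (SE 0.26, adjusted p = 0.156, edgeR with Benjamini-Hochberg adjustment). The fit of these 2 tables alone, added after seeing the data, gave -0.84 and called it. The Kdm1a KD libraries lay below their control (460.1 and 469 against 575 CPM). Exons of Prdx2 overlap those of Rnaseh2a on the opposite strand, whose reads may be counted in either gene. The erythroid marker sum moved with Prdx2, from 1379 to 1465 CPM in controls up to 3934 to 4280 CPM in the Irf2bp2 KD, from 1963 to 2013 up to 4147 to 4851 on induction, from 1644 to 1649 up to 2463 to 2925 in the Cbfa2t3 KD, and from 1765 down to 1223 to 1228 in the Kdm1a KD. Its part in the result was not tested.

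Gpx1 (mm9, chr9:108241607-108242671, plus strand), which reduces peroxides with glutathione, was the gene called in both the Cbfa2t3 and the Irf2bp2 KD. Cbfa2t3 controls measured 276 and 282 CPM, sh2 gave 407 and 444 CPM, and sh3 gave 438 and 436 CPM. Irf2bp2 controls measured 229 and 244 CPM and the Irf2bp2 KD libraries 372 and 385 CPM. Neither pair of arms overlapped. Gpx1 rose by 0.63 (SE 0.06, adjusted p = 3.73e-04, 1.55-fold) in the former and by 0.68 (SE 0.09, adjusted p = 6.26e-06, 1.60-fold) in the latter, by edgeR with Benjamini-Hochberg adjustment, and the former less the latter was -0.06 (SE 0.31, adjusted p = 0.966). On induction the levels were 216 and 104 CPM before and 240.0 and 343 CPM after, and the log2 fold change of 0.86 (SE 0.32, adjusted p = 0.0581) was not called. Without non-induced replicate 1 it was 1.47 (adjusted p = 0.0208) and without induced replicate 1 it was 1.09 (adjusted p = 0.00729), and both were called. Without non-induced replicate 2 it was 0.43 (adjusted p = 0.354) and without induced replicate 2 it was 0.60 (adjusted p = 0.243), and neither was. The replicate block gave 0.93 (adjusted p = 0.0232) and called it.

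Cat (mm9, chr2:103294006-103325317, minus strand), which encodes catalase, fell in the Irf2bp2 KD and rose on induction. Irf2bp2 controls held 110.3 and 113 CPM and their KD libraries 57.3 and 61.9 CPM. Non-induced libraries held 69.9 and 69.0 CPM and induced libraries 106 and 123 CPM. Both differences were free of overlap. The log2 fold changes were -0.91 (SE 0.08, adjusted p = 1.73e-07) and 0.72 (SE 0.24, adjusted p = 0.0357), and their difference of -1.57 was called (SE 0.21, adjusted p = 3.66e-04, edgeR with Benjamini-Hochberg adjustment). The induction call was lost without either non-induced library (adjusted p = 0.126 and 0.127) and without induced replicate 2 (0.219). Cbfa2t3 controls measured 77.8 and 70.4 CPM, sh2 gave 61.1 and 57.8 CPM, and sh3 gave 77.0 and 72.3 CPM. Only the sh2 libraries lay below the controls, and the gene was not called (-0.14, SE 0.12).

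Sod1 (mm9, chr16:90220987-90226567, plus strand), the cytosolic copper-zinc superoxide dismutase, was at 284 and 435 CPM in non-induced and at 205 and 217 CPM in induced libraries. The induced libraries were lower, and the non-induced replicates differed widely. Sod1 fell by 0.77 (SE 0.26, adjusted p = 0.041, edgeR with Benjamini-Hochberg adjustment). The call was lost without non-induced replicate 2 (-0.43, adjusted p = 0.279), induced replicate 1 (-0.74, 0.119) or induced replicate 2 (-0.80, 0.130). The Irf2bp2 KD values of 356 and 363 against 420.4 and 437 CPM passed the test but not the size limit (0.25, SE 0.08, adjusted p = 0.0213). The Irf2bp2 KD and induction differed by 1.07 for Sod1 (SE 0.22, adjusted p = 0.00534). The gene had 6 assigned sites, from 23282 bases upstream to 14120 bases downstream, and none within 5 kb of its start.

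Sod2 (mm9, chr17:13200705-13210985, plus strand), the mitochondrial manganese enzyme, was called in no tested comparison, with log2 fold changes of 0.11 (SE 0.06), -0.10 (SE 0.08), -0.07 (SE 0.27) and -0.13 (SE 0.23) in the Cbfa2t3, Irf2bp2 and Gfi1b KDs and induction. The Gfi1b value averages the library labelled KD replicate 1 at 124 CPM and replicate 2 at 205 CPM, on either side of the controls at 180.1 and 165 CPM. Kdm1a KD libraries held 135 and 143 CPM and their control 197 CPM. That is a mean difference of -0.51, of which 1 library passed the limit of 0.5. An IRF2BP2-only site covered its start (53 bases downstream, 3.67-fold).

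The Gfi1b KD needs its libraries read singly. Prdx2 was at 301 and 346 CPM in controls, at 672 CPM in the library labelled KD replicate 1 and at 351 CPM in replicate 2. Bach1 was at 77.0 and 66.8, 120.4 and 73.8 CPM in the same order, and Gclm at 172 and 134, 229 and 147 CPM. In each case replicate 2 lay near the controls. Without replicate 2, that is with the library labelled replicate 1 as the single KD sample assumed to vary like the controls, Cat (0.65), Prdx2 (1.04), Hmox1 (-1.17), Gclm (0.56) and Bach1 (0.72) were called, among 26.7% of 11802 genes. Without the library labelled replicate 1, none of the 10 was called among 3.48% of 11381 genes, and the same log2 fold changes were 0.41, 0.12, -0.42, -0.07 and 0.03. The library labelled replicate 1 was closer in counts to induced replicate 1 (chi-square of the counts, 34.6 per gene) than to its own replicate (99.8) or controls (119 and 95.5). No direction is drawn for the 10 genes from this KD.

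Genes around the 10 were read from 4 further lists of the same pathways. Of 12 haem breakdown, export and iron genes tested, 6 rose in the Irf2bp2 KD (10.1% of all genes did), 7 on induction (12.4%) and 4 in the Cbfa2t3 KD (2.99%), and none fell. They included Abcg2, a porphyrin and haem exporter (1.63, 3.35 and 1.90), and Abcb10, a mitochondrial transporter needed for haem synthesis (1.67, 2.63 and 0.90). The Kdm1a KD put 2 past the limit upwards (13.1% of all genes), Fth1 (0.61), the heavy chain of ferritin, and Slc40a1 (0.55), the iron exporter, and 2 downwards (9.8%), Abcg2 (-1.13) and Slc48a1 (-0.63). The list median was 0.36, 0.79, 0.25 and -0.14, beside medians over all genes of -0.01, -0.02, 0.00 and 0.00. The Gfi1b KD called none of 12, with a list median of 0.49 (0.02 over all genes) that includes the library labelled KD replicate 1.

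Glutathione genes were called in both directions. In the Irf2bp2 KD 2 of 18 rose (10.1% of all genes), Mgst3 (2.50), a microsomal glutathione transferase, and Glrx5 (0.79), a mitochondrial glutaredoxin of iron-sulphur cluster assembly, and 3 fell (12.5% of all genes), Gsta4 (-1.11), Gstt2 (-0.64) and Gsto1 (-0.62). On induction 3 of 17 rose (12.4%), with Mgst3 at 2.96 and Glrx5 at 1.51, and 5 fell (14.8%), with Gstm1 at -3.46, Gsta4 at -3.44 and Gsto1 at -2.41. Gstm1 and Gsta4 were low after induction, at 0.311 and 0.590 CPM on average. In the Cbfa2t3 KD Mgst3 (1.02) and Gstm5 (0.51) rose, of 17 (2.99%). Past the limit in the Kdm1a KD were 2 upwards, including Gsto1 (0.70), of 17 (13.1% of all genes), and 4 downwards (9.8%), including Glrx5 (-0.76). The Gfi1b KD called none of 17. List medians were -0.07, -0.08, 0.10, 0.13 and 0.10 in this order.

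Of 18 thioredoxin genes 2 were called in the Irf2bp2 KD (22.5% of all genes) and 4 on induction (27.2%), and 3 were past the limit in the Kdm1a KD (22.9%), shares at or under those of all genes. In the Irf2bp2 KD Txnrd2 (0.58), the mitochondrial thioredoxin reductase, rose and Sesn2 (-0.94), a stress-inducible sestrin, fell. On induction 3 of 18 rose, Txnip (1.92), the thioredoxin inhibitor, Sesn3 (1.36) and Srxn1 (0.79), which repairs overoxidised peroxiredoxins, and Prdx6 (-0.76) fell. Txnip (-0.59) fell in the Cbfa2t3 KD. Kdm1a depletion put Sesn3 (1.19) and Msra (1.19) past the limit upwards and Srxn1 (-0.53) downwards. The Gfi1b KD called none of 18. The medians were 0.10, -0.09, 0.02, 0.13 and -0.01.

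Among NADPH-supplying enzymes and other NRF2 targets, 7 of 15 fell on induction, where 14.8% of all genes did, including Pgd (-1.76) of the pentose phosphate pathway and the NADP-dependent isocitrate dehydrogenases Idh1 (-1.21) and Idh2 (-1.16), and Aox1 (2.99) rose. Irf2bp2 depletion lowered 3 of 16 (12.5% of all genes), Osgin1 (-1.20), Abcc1 (-0.78) and Nnt (-0.67), and raised none. Idh1 (-0.56) alone of 16 fell in the Cbfa2t3 KD (2.75% of all genes). For the Kdm1a KD, of 16 genes, Idh1 (1.35) and Aox1 (0.65) were past the limit upwards (13.1% of all genes) and Cbr1 (-2.13), Cbr3 (-1.39) and Idh2 (-0.83) downwards (9.8%). The Gfi1b KD called none of 14. The list medians were -0.55, -0.23, -0.19, -0.02 and -0.01. Aox1, Osgin1 and Cbr3 were low, so their fold changes rest on few reads. Aox1 averaged 0.318 CPM in non-induced libraries and 0.286 CPM in the Kdm1a control, Osgin1 0.391 CPM after Irf2bp2 KD and Cbr3 0.357 CPM after Kdm1a KD.

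Beside the Kdm1a KD values, Spi1, the main myeloid factor of the marker list, was at 121 CPM in the control and 183 CPM on average in the KD libraries (0.59), and the myeloid list summed to 132 and to 192 to 199 CPM. The myeloid sum was 93.8 to 102 CPM in Irf2bp2 controls and 136 to 148 CPM in KD libraries, and 50.6 to 89.1 CPM before and 21.9 to 37.7 CPM after induction, with Spi1 called in both (0.57 and -1.66). It was 134 to 142 CPM in Cbfa2t3 controls and 114 to 129.6 CPM in KD libraries, and 63.6 to 74.3 CPM in Gfi1b controls and 50.9 to 80.7 CPM in libraries labelled Gfi1b KD, with no marker called in either. Only 2 of the 10 listed myeloid markers had enough reads to be tested in each table, and their median on induction was -0.44. Spi1 made up most of the sum, at 82.9 CPM on average in Irf2bp2 controls and 63.9 CPM before induction, so the sum largely follows 1 gene. Megakaryocyte markers summed to 369.7 to 426 CPM in Irf2bp2 controls and to 808 to 849 CPM in KD libraries, with 6 of 6 called higher (10.1% of all genes) and Pf4 the most abundant (287 and 569 CPM on average). In the Cbfa2t3 KD the sum went from 403 to 416 CPM up to 483 to 596 CPM, with Vwf (2.15) and Gp9 (0.68) called higher of 6 (2.99% of all genes). It was 389.6 to 527 CPM before and 1172 to 1299 CPM after induction, where Itga2b rose (2.07, 187 and 786 CPM on average), Ppbp fell (-5.05) and the other 4 were not called (12.4% of all genes rose and 14.8% fell). In the Kdm1a KD it was 340 CPM in the control and 286 to 350 CPM in KD libraries, with Ppbp (2.75, 13.1% of all genes upwards) and Gp1bb (-0.91, 9.8% downwards) past the limit of 6. In the Gfi1b KD it was 223 to 287 CPM in controls, 176 CPM in KD replicate 2 and 894 CPM in the library labelled KD replicate 1. The part of these genes' cell types in the results was not tested.

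Induction and the Cbfa2t3 KD differed for 6 of the 10 genes, with 24.4% of all genes called. These were Cat (-0.82), Prdx2 (-0.82), Sod1 (0.74), Hmox1 (1.34), Gclm (-1.32) and Bach1 (-1.42), each given as the Cbfa2t3 KD less induction. Induction and the Irf2bp2 KD differed for Cat, Sod1, Gclm, Nfe2l2 and Bach1, with 20.5% of all genes called, and the Gfi1b KD and induction differed for Sod1 and Gclm, with 12.2% called.

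Over the 21 libraries, each taken as log2 CPM less the mean of its own controls, the genes whose pattern was most like that of Nfe2l2 were Tsg101 (Pearson r = 0.973), Gca (0.937) and Mitd1 (0.930), of 11052 genes. Tsg101 changed by -1.24, Gca by -1.75 and Mitd1 by -1.51 in the Irf2bp2 KD. For Hmox1 they were Git2 (0.960), Swap70 (0.956) and Lgals8 (0.952). In that order they changed by -0.40, -0.60 and -1.64 in the Irf2bp2 KD and by 0.36, 0.56 and 1.23 in the Kdm1a KD, all less than Hmox1. For Cat they were Appl1 (0.952), Tcp11l2 (0.949) and Alg11 (0.947), and for Prdx2 Dmtn (r = 0.98), Spef1 (0.979) and Stk11 (0.978). The libraries of a table share controls, and the values are a description.

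The promoter windows of RefSeq (GRCm38.p6), 250 bases before to 50 after the start, held TGACNNNGC on either strand for 3 of the 9 genes with a window (all but Hmox1), Gclm, Nfe2l2 and Sod1, and for 12.4% of all 32851 windows. TGAGTCA (5.2% of windows) and GATAA (25.4%) occurred in none of the 9. Among the 19 IRF2BP2-only site windows of the 10 genes, 5 held TGACNNNGC, 5 TGAGTCA and 11 GATAA.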

How the data were processed

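RNA-Seq of MEL cells gave 21 libraries. The authors mapped reads with TopHat2 to mm9, counted them per RefSeq gene and deposited the counts, unnormalized, beside RPKM. Use of strand in the counting is not given in the sources used here. For the binding list the authors combined ETO2 and IRF2BP2 ChIP sites found by at least 2 peak callers, and deposited the ChIP over IgG fold (a ratio of reads) and an adjusted p-value per site. The class of a site was read from a code through the class sizes. Fold changes and p-values of the authors' own expression comparisons, and 4 read columns of the site list, were not used.

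Each table was tested separately with edgeR 4.0.16 in R 4.3.3 (TMM, filterByExpr, glmQLFit, glmQLFTest), with Benjamini-Hochberg adjustment over all genes tested, an adjusted p of at most 0.05 and an absolute log2 fold change of at least 0.5. The Kdm1a KD has 1 control and was given without a test, as log2 CPM with a prior count of 2. Differences between comparisons were tested over 18 libraries in 1 fit. The scripts were tested on simulated data. DESeq2 1.42.0, other scalings and filters, a replicate block and leaving out each library were alternatives. Sites were assigned to the nearest protein-coding gene (GENCODE vM1, mm9) within 1 Mb, and motifs were searched on both strands in Python 3.11.15. The sequence around the Nfe2l2 site is not reported here. No library pair agreed within sampling noise. Depth set counting error, which the floors cover alone.

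The 10 genes and all lists were chosen with earlier results of these data known. Named beyond the 10 were the targeted genes, at most the 3 most changed called genes per list and direction, and the 3 genes most like each of the 4 genes with the widest range of log2 fold change. Pf4 was named for its abundance after its values were seen.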

Additional observations from a re-analysis of the deposited data

Results flagged for a closer look

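Responses differed between comparisons in 18 of the 60 differences tested over 6 pairs, by edgeR with Benjamini-Hochberg adjustment over all genes. Of all genes, 0.742 to 24.4% were called by pair, and 12.2 to 24.4% in the pairs with induction, where most of the 18 fell. Between the sh3 and sh2 hairpins of the Cbfa2t3 KD, Nqo1 differed by 0.51 (adjusted p = 0.0419) and Nfe2l2 by 0.61 (adjusted p = 1.14e-04) on the log2 scale, sh3 being higher, where 3.71% of all genes were called.

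The Cbfa2t3 KD less the Irf2bp2 KD was 2.21 for Hmox1 and 1.80 for Nfe2l2. Less induction, the Cbfa2t3 KD was -0.82 for Cat, -0.82 for Prdx2, 0.74 for Sod1, 1.34 for Hmox1, -1.32 for Gclm and -1.42 for Bach1.

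The Irf2bp2 KD less the Gfi1b KD was -1.37 for Cat, -1.72 for Hmox1 and -1.33 for Nfe2l2. Less induction, the Irf2bp2 KD was -1.57 for Cat, 1.07 for Sod1, -1.46 for Gclm, -1.56 for Nfe2l2 and -1.11 for Bach1.

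The Gfi1b KD less induction was 0.89 for Sod1 and -1.23 for Gclm, and the values with the Gfi1b KD rest in part on the library whose Gfi1b level goes against its label. The comparisons with induction share the 2 non-induced libraries, which differed from each other for Hmox1, Gpx1 and Sod1. In the 4 Cbfa2t3 KD libraries none of the 10 genes had a library set apart from the others beyond Dixon's 95% critical value, a test that 2 libraries from each of 2 differing hairpins can mask.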

How the results depend on the processing

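The calls of the 10 genes in the Cbfa2t3 and Irf2bp2 KDs held under other scalings, filters, DESeq2 and the replicate block, with 1 and 5 genes called, and when any 1 library was left out. In the Cbfa2t3 KD 3 genes passed without a limit on the fold change and 2 with sh3 alone. The count was 0 to 5 in the Gfi1b KD and 3 to 6 in MEL induction when 1 library was left out, with the 5 reached without Gfi1b KD replicate 2 and the 3 without non-induced replicate 2. Induction called 7, with Gpx1 added, by DESeq2, without a filter, with at least 10 reads and with the block. In the Kdm1a KD the count was 1 to 2 with 1 KD library and 2 in an edgeR fit of its 3 libraries, with Sod2 added. Fitted in their 2 tables alone, the Cbfa2t3 and Irf2bp2 KDs differed for 4 genes in place of 2. With 1 hairpin, signs turned for Cat (0.0083 with sh3), Sod1 (0.047 with sh2), Nqo1 (0.0755 with sh3), Gclm (-0.0353 with sh2) and Nfe2l2 (-0.0204 with sh2). With 1 library left out, uncalled values changed sign for Nqo1 in the Irf2bp2 KD (-0.22 to 0.28) and the Kdm1a KD (-0.0772 to 0.28), for Sod2 (-0.49 to 0.24), Nqo1 (-0.12 to 0.81) and Gclm (-0.0661 to 0.56) in the Gfi1b KD, and for Nqo1 (-0.72 to 0.12) and Nfe2l2 (-0.11 to 0.35) in induction. The cause was not tested.

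Over all genes the calls were 1423 in the Cbfa2t3 KD without a fold limit, 1145 with sh3 alone, and 279 and 360 without control replicate 1 or 2, in place of 720. The Irf2bp2 KD had 5810 without a fold limit in place of 2778. The Gfi1b KD had 59 by DESeq2 and 411 without a filter in place of 0, and induction had 1626, 1522 and 1772 without non-induced replicate 1, non-induced replicate 2 or induced replicate 2 in place of 3187. With the replicate number as a block the counts were 632, 2834, 0 and 3916, and 1, 5, 0 and 7 of the 10 genes. Deviations of same-numbered libraries correlated at 0.12 to 0.25 in the Cbfa2t3 KD, 0.03 in the Irf2bp2 KD, 0.002 in the Gfi1b KD and 0.20 in induction, with only 2 numbers each. The labels name no shared batch, and whether the numbers mark one was not settled. Nqo1 had the fewest reads of the 10 genes, 17 in its lowest library.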
